A study of Sus scrofa with 57 samples.

Results

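The collagens and the matrix genes that mark the stroma of fat were followed in mature adipocytes of lean and obese pigs. The set was chosen by name. It took every gene whose name in the RNAseq tables is that of a collagen chain, and with them FN1, FBN1, MFAP5, DCN, LUM, SPARC, POSTN, DPT, LOX, PI16, FAP and ISLR. This gave 53 of 25285 gene identifiers, of which 40 were collagen entries with 36 names and 13 were entries of the other 12 genes. The animals descended from Göttingen minipigs, a breed that fattens readily, and commercial meat pigs. The lean and obese labels stand for the low and high ends of fatness among the descendants, which were kept and fed alike. The cells were those that floated after about 15 g of retroperitoneal fat had been digested in 0.2% collagenase and passed through a 200 µm filter, so the material was a floating fraction and not a sorted cell type. RNA was sequenced from 5 lean males (pig-402, pig-407, pig-413, pig-525 and pig-577) and 5 obese males (pig-433, pig-473, pig-524, pig-529 and pig-572), with 2 libraries of pig-572 that were averaged. DNA methylation was measured by capture of methylated fragments (mDNAcap, 11 lean and 11 obese libraries in the comparison the authors deposited) and by reduced representation bisulfite sequencing (RRBS, for which group means were used). The labels give no treatment, genotype or age.

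Collagens are secreted as chains that wind around each other into helices and assemble outside the cell. Types I, III and V build the fibrils that carry tension, type IV forms the sheet of the basement membrane that wraps every adipocyte, and type VI forms beaded filaments between these layers and is abundant in fat. Fibronectin, fibrillin and small proteoglycans such as decorin and lumican are laid down on and between these fibers. In adipose tissue much of the fibrillar matrix is made by fibroblast-like stromal cells, while adipocytes contribute to their own basement membrane.

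RNA levels are given as FPKM, fragments per kilobase of transcript scaled to the mapped fragments of the library, after division by 1 size factor per library (0.690 to 1.22). A gene was tested when its mean over the pigs was at least 1 FPKM, which held for 25 of the 53 identifiers and for 10200 genes in all. The reads behind a gene's value are not in the FPKM tables, but the bounds that the authors' program gave for a library lay a median of 7.94% to 9.54% from the value. The adipocyte marker PLIN1, which coats the lipid droplet, was at 228 to 455 FPKM in every pig, and LEP, the gene of leptin, at 7.34 to 54.6 in lean and 76.6 to 153 in obese pigs. The fibroblast and preadipocyte surface markers of the list used were low. The members FAP, ISLR and PI16, which also mark stromal cells, were higher, at means of 21.5, 53.2 and 2.95 FPKM over the pigs. All 8 names of the list that were found had means under 1 FPKM, and DLK1 was at 0 in all pigs. The summed level of the list was 0.906 to 5.71 in lean and 1.15 to 4.77 in obese pigs. In bulk RNA, fewer cells of a type and less RNA per cell cannot be told apart.

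The matrix genes of the adipocyte fraction covered a wide range of levels. COL3A1, a fibril collagen of soft tissue, led with a mean of 397 FPKM over the 10 pigs (rank 240 of all genes), followed by SPARC, a collagen-binding secreted protein, at 291 and COL5A2 at 164. Another 11 identifiers lay between 10 and 100 FPKM, 11 between 1 and 10, and 28 under 1. Of these 28, which were not tested, 17 stayed under 0.1 FPKM in every pig, among them the cartilage collagens COL2A1 and COL9A1, the anchoring collagen COL7A1 and a second entry of FN1.

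**Figure D1:**
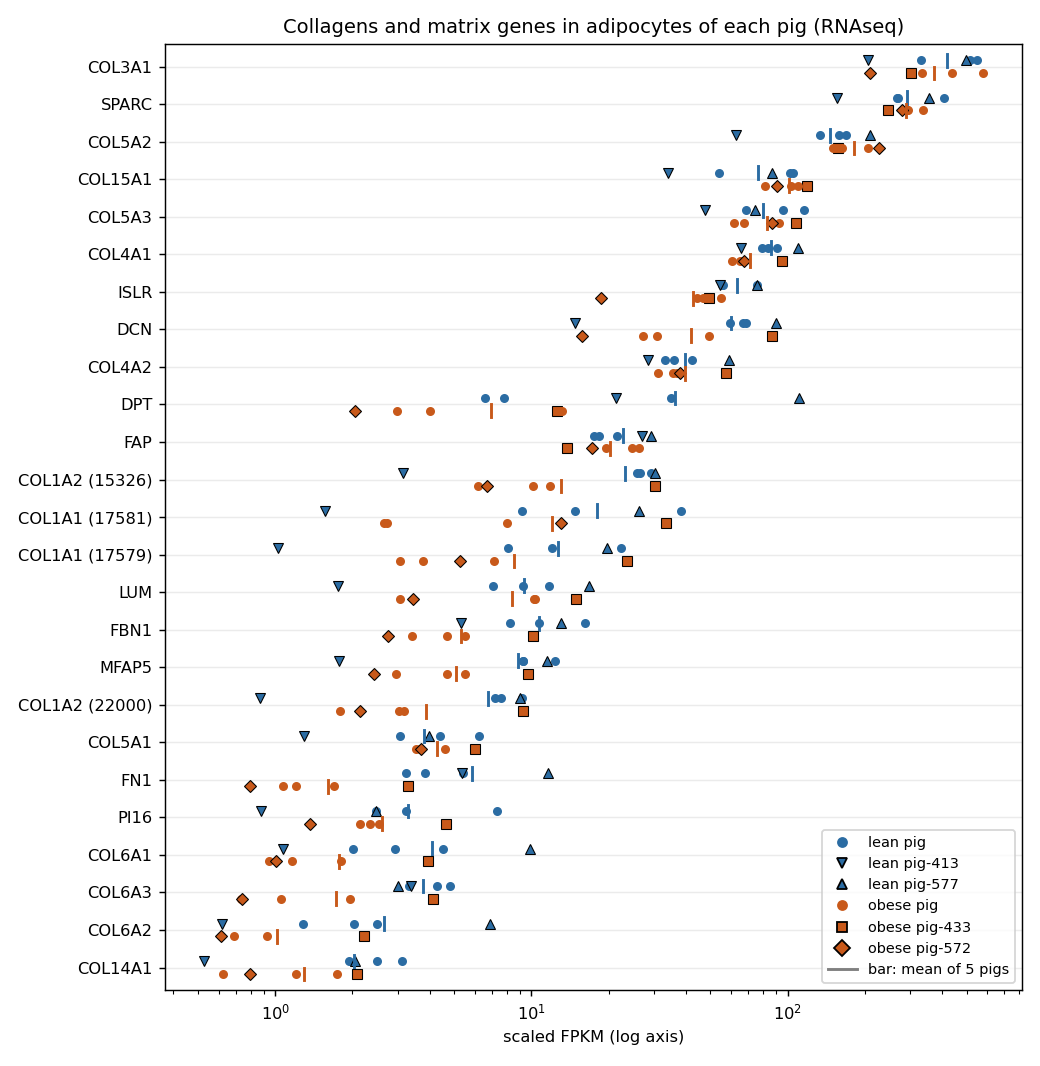
Level of the 25 tested collagen and matrix identifiers in each pig, as scaled FPKM on a log axis, ordered by mean level, with lean pigs in blue, obese pigs in orange, bars for the mean of 5 pigs and the last 5 digits of the identifier where a name has more than 1. Lean pig-413 was the lowest of all pigs in 16 of 25, and in no member were the groups apart.

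No member passed limma's test over all genes at an adjusted p of 0.05, and 1 of the 10200 genes did (0.0098%). At an unadjusted p of 0.05, 5 of the 25 were lower in obese pigs (20%) and 0 were higher, against 10.3% of all genes tested that were lower and 10.5% that were higher. These 5 were FN1, COL6A3, FBN1, DPT and ISLR. The 25 identifiers have 23 names. COL1A1 and COL1A2 count with both of their entries, all lower in obese pigs by mean log2 level. The mean log2 level was lower in obese pigs in 19 of 25 (76%) and in 50.3% of all genes, and the median difference was -0.45 over the 25 and -0.002 over all genes. That median depended on single pigs. It was -0.26 without obese pig-473, -0.27 without lean pig-407 and -0.30 without obese pig-572, but -0.68 without lean pig-413 and -0.70 without obese pig-433. Over all 53 identifiers without a filter it was -0.011. The 28 identifiers this adds had means under 1 FPKM, where log2(value + 1) compresses any difference. In none of the 25 did lean and obese pigs separate completely, which 4.16% of all genes did.

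**Figure D2:**
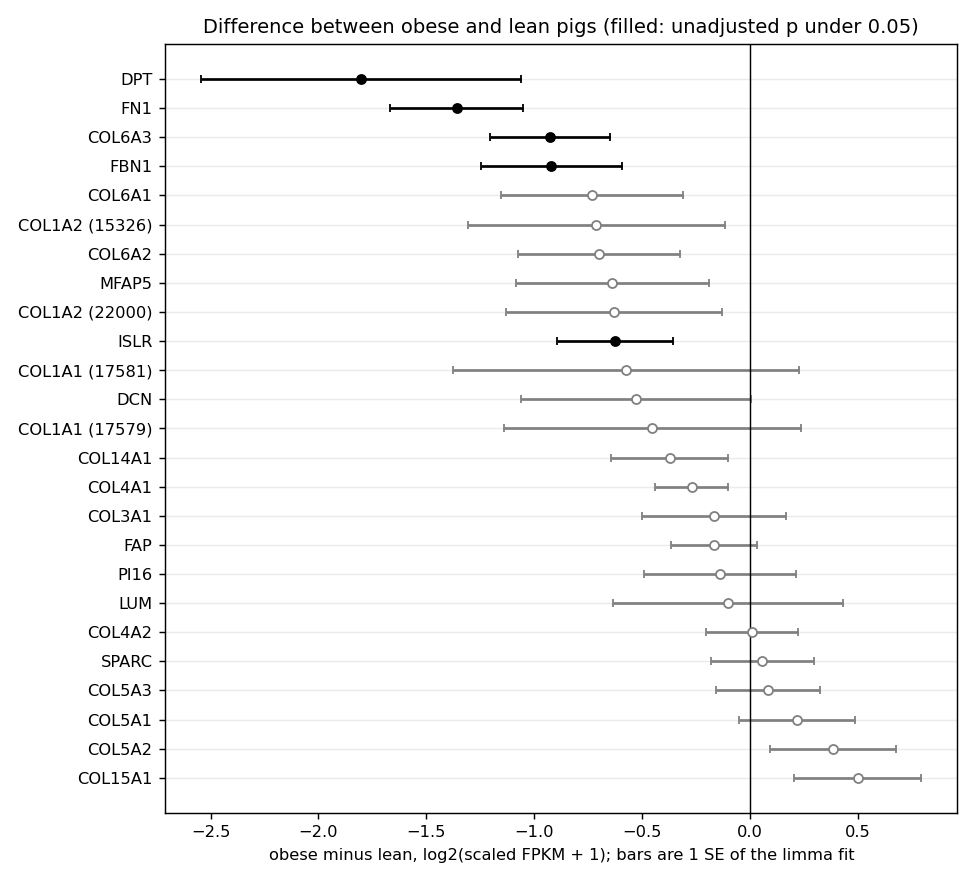
Obese minus lean difference of mean log2(scaled FPKM + 1) for the 25 tested identifiers, with 1 SE of the limma fit (5 lean and 5 obese pigs) and filled points where the unadjusted p was under 0.05. Values run from -1.80 for DPT to 0.50 for COL15A1.

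FN1 encodes fibronectin, the adhesive glycoprotein on which cells assemble matrix. Its main entry (ENSSSCG00000016174, chromosome 15, 130357872 to 130430503 on Sscrofa10.2) was at 5.42, 3.82, 5.37, 3.24 and 11.6 FPKM in lean pig-402, pig-407, pig-413, pig-525 and pig-577, and at 3.29, 1.07, 1.69, 1.2 and 0.799 in obese pig-433, pig-473, pig-524, pig-529 and pig-572. Only pig-433 among the obese reached the lean range, just above pig-525. The means were 5.88 ± 3.32 and 1.61 ± 0.993 (SD, n = 5 each), and the log2 difference was -1.36 (SE 0.308), a 2.56-fold higher level in lean pigs on this scale. The exact two-sided permutation p was 0.0159 and limma's adjusted p 0.0971, the lowest among the members. Without lean pig-577, the highest, the log2 difference was -1.11.

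DPT encodes dermatopontin, a small protein that binds decorin and collagen. Among the 25 tested identifiers it had the highest ratio between the highest and the lowest pig, 54.3. Lean pigs, in the order above, had 7.81, 6.60, 21.4, 34.9 and 111 FPKM, and obese pigs had 12.5, 13.2, 2.99, 4.01 and 2.04. Lean pig-402 and pig-407 lay below obese pig-433 and pig-473. Means were 36.4 ± 43.3 and 6.95 ± 5.43 (SD, n = 5 each), with a log2 difference of -1.80 (SE 0.741, limma adjusted p = 0.211, exact permutation p = 0.0714). Without pig-577 the difference was -1.23.

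Collagen VI was represented by the 3 chains that form its common heterotrimer. COL6A3 (ENSSSCG00000027331, chromosome 15, 151451224 to 151542446) was at 3.34, 4.26, 3.39, 4.80 and 3.02 FPKM in lean and 4.13, 1.95, 0.732, 1.05 and 0.742 in obese pigs. Again pig-433 alone of the obese animals stood within the lean range. The log2 difference was -0.93 (SE 0.279, limma adjusted p = 0.140, exact permutation p = 0.0317). Without pig-433 it was -1.19, with an adjusted p of 0.0706 in limma.

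COL6A1 was at 2.01, 4.5, 1.08, 2.93 and 9.88 FPKM in lean and 3.96, 1.81, 0.941, 1.16 and 1.0 in obese pigs, and COL6A2, which lies on chromosome 13, at 1.28, 2.49, 0.618, 2.02 and 6.88 against 2.21, 0.925, 0.615, 0.690 and 0.613. In both chains pig-577 was far above the rest of the lean pigs and pig-413 stood with the low obese pigs. COL6A1 differed by -0.73 (SE 0.421, limma adjusted p = 0.339) and COL6A2 by -0.70 (SE 0.377, adjusted p = 0.305), both within the spread of the pigs. Without pig-577 these were -0.40 and -0.37. COL6A5, a chain of limited tissue range, stayed at or under 0.478 FPKM. The summed collagen VI level was 5.36 to 19.96 FPKM in lean and 2.29 to 10.4 in obese pigs, where pig-433 gave the obese maximum.

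FBN1 and MFAP5 are parts of the microfibril, the scaffold of elastic fibers. FBN1 (fibrillin-1, ENSSSCG00000004658, chromosome 1, 137103319 to 137303566) was at 16.2, 10.7, 5.30, 8.25 and 13.1 FPKM in lean and 10.1, 3.42, 5.50, 4.66 and 2.76 in obese pigs. Obese pig-433 and pig-524 exceeded lean pig-413. The log2 difference was -0.92 (SE 0.327, limma adjusted p = 0.180, exact permutation p = 0.0476). MFAP5 had 9.27, 9.30, 1.77, 12.3 and 11.5 FPKM in lean and 9.73, 2.95, 5.51, 4.69 and 2.42 in obese pigs, a difference of -0.64 (SE 0.448, limma adjusted p = 0.433). Here pig-413 was below every obese pig and pig-433 was above lean pig-402 and pig-407.

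ISLR, PI16 and FAP are used as markers of stromal cells. ISLR was at 56.1, 55.3, 54.3, 75.9 and 76.2 FPKM in lean and 49.2, 54.9, 46.9, 44.3 and 18.8 in obese pigs, so that pig-473 overlapped the lean range by less than 1 FPKM and pig-572 was lowest. Its log2 difference was -0.63 (SE 0.268, limma adjusted p = 0.223, exact permutation p = 0.0159), and -0.36 without pig-572. FAP, a protease of the fibroblast surface, was at 17.5 to 29.3 FPKM in lean and 13.8 to 26.2 in obese pigs (log2 difference -0.17, SE 0.200, limma adjusted p = 0.658). PI16 was at 0.881 to 7.36 and 1.37 to 4.63 FPKM (log2 difference -0.14, SE 0.353, limma adjusted p = 0.843). In FAP pig-413 was among the high pigs, at 27.1 FPKM.

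The chains of collagen I, the main collagen of fibrous tissue, varied more between pigs than between groups. Each has 2 entries, on a chromosome and on an unplaced scaffold, so reads may have been split and the levels are uncertain. COL1A1 on the scaffold (ENSSSCG00000017579) was at 12.05, 22.3, 1.03, 8.11 and 19.8 FPKM in lean and 23.7, 3.76, 3.08, 7.11 and 5.28 in obese pigs. The longer COL1A2 entry, on chromosome 9 (ENSSSCG00000015326), had 26.6, 29.4, 3.14, 25.9 and 30.4 against 30.4, 11.9, 6.2, 10.1 and 6.70. In all 4 entries the lowest value was in a lean pig, pig-413, and in 3 of them the highest was in obese pig-433. Differences were -0.45 (SE 0.687) and -0.57 (SE 0.803) for the COL1A1 entries and -0.71 (SE 0.597) and -0.63 (SE 0.500) for those of COL1A2, with limma adjusted p between 0.490 and 0.728.

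The abundant fibrillar chains did not follow the same order. COL3A1 was at 515, 551, 207, 333 and 500 FPKM in lean and 305, 437, 582, 334 and 211 in obese pigs (log2 difference -0.17, SE 0.334, limma adjusted p = 0.795). COL5A2, a regulator of fibril width whose locus neighbours that of COL3A1, was at 169, 159, 62.9, 133 and 210 in lean and 157, 151, 164, 206 and 228 in obese pigs, with a positive difference of 0.38 (SE 0.293, limma adjusted p = 0.472). COL5A1 (0.22, SE 0.269) and COL5A3 (0.08, SE 0.242) also had positive differences, all well within the spread. Without pig-413 the differences were 0.11 for COL5A2, -0.02 for COL5A1 and -0.09 for COL5A3. Pig-572, among the lowest pigs for most members, was the highest for COL5A2.

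COL4A1 and COL4A2, the main basement membrane chains, had the smallest ratios between the highest and the lowest pig among the 25 tested identifiers. COL4A1 ranged over 66.0 to 110 FPKM in lean and 60.9 to 95.5 in obese pigs, a ratio of 1.81 between the extreme pigs, the lowest of the 25. Its log2 difference was -0.27 (SE 0.167, limma adjusted p = 0.373). COL4A2, its partner in the trimer and on the same chromosome, ranged over 28.6 to 59.1 and 31.1 to 57.2 FPKM (difference 0.01, SE 0.212, limma adjusted p = 0.984), and the sign changed when FPKM were not scaled. COL15A1, a collagen at the outer face of basement membranes, was at 103, 53.8, 34.2, 105 and 87.0 FPKM in lean and 119, 103, 110, 81.5 and 91.3 in obese pigs. It had the highest positive difference of the members, 0.50 (SE 0.295, limma adjusted p = 0.349), which was 0.24 without pig-413.

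Among the remaining tested genes, the proteoglycan decorin (DCN) was at 14.8 to 90.4 FPKM in lean and 15.7 to 86.9 in obese pigs (log2 difference -0.53, SE 0.531, limma adjusted p = 0.587). Lumican (LUM) was at 1.75 to 16.8 and 3.05 to 14.9 (-0.10, SE 0.532, adjusted p = 0.930 in limma). SPARC was at 156 to 409 and 246 to 338 (0.06, SE 0.241, adjusted p = 0.907 in limma). COL14A1, which decorates fibrils, was at 0.527 to 3.12 and 0.624 to 2.08 (-0.37, SE 0.270, adjusted p = 0.450 in limma). In each of DCN, LUM, SPARC and COL14A1, the lowest of the 10 pigs was pig-413.

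LOX and POSTN lay under the limit for testing. LOX, the enzyme that crosslinks collagen, was at 0.164 to 0.668 FPKM in lean and 0.372 to 1.19 in obese pigs, and POSTN (periostin) at 0.0644 to 1.16 and 0.0534 to 0.491. COL4A5, a basement membrane chain encoded on the X chromosome, was unusual in its spread. It was at 0.812 to 2.07 FPKM in lean pig-402 and pig-577 and obese pig-433, pig-473 and pig-524, and at 0.0158 to 0.118 in the other 5, a pattern that crossed the groups.

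The members varied more between pigs of a group than genes at large. The median coefficient of variation within a group was 0.525 over the 25 members and 0.194 over all genes tested. Lean pig-413 was below all other lean pigs in 21 of 25 members, at a median of 0.360 of their median level, and was the lowest of the 10 pigs in 16. Obese pig-433 was above all other obese pigs in 19, at a median ratio of 2.17. Lean pig-577 was the highest of the 10 pigs in 10 members, and obese pig-572 was among the 3 lowest in 16. The libraries of pig-572 differed by a median of 0.08 on the log2 scale over the members, whereas pairs of obese pigs differed by 0.30 to 1.25.

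**Figure D3:**
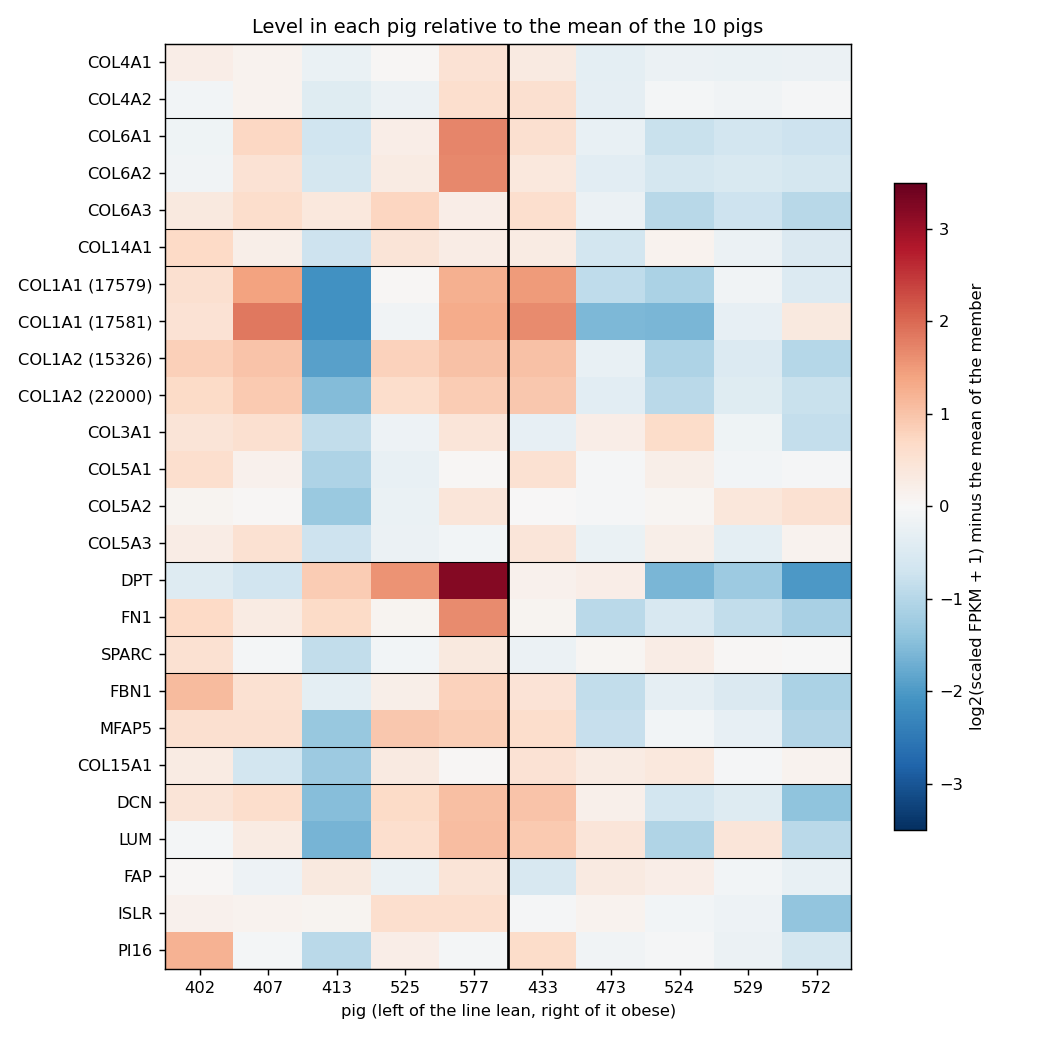
Level of each tested member in each pig as log2(scaled FPKM + 1) minus the mean of that member over the 10 pigs, with red above and blue below the mean, rows grouped by matrix role and the lean pigs left of the line. The column of lean pig-413 is blue in most rows and that of obese pig-433 red in most rows, while lean pig-577 is mostly red and obese pig-572 mostly blue.

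These animals moved the counts. Without pig-413, 11 members were lower in obese pigs at an unadjusted p of 0.05 (6.92% of all genes were). Of these, 4 were among the 5 named first, DPT was lost, and both COL1A2 entries, COL6A1, COL6A2, COL14A1, DCN and MFAP5 were added. Without pig-433 the number was 8, with COL4A1, COL6A1 and COL6A2 added (9.93% of all genes). Without lean pig-525 or pig-577, or without obese pig-529, it was 3, in each case without DPT and ISLR (9.74%, 6.94% and 8.79% of all genes). DPT was also lost without obese pig-524 or pig-572, and ISLR without lean pig-402. No member passed the adjusted threshold when any pig was left out, where the lowest adjusted p in limma lay between 0.0627 and 0.238.

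Markers of most other cell types were also low in pig-413. Its summed levels were the lowest of the 10 pigs for fibroblast and preadipocyte markers (0.906 FPKM), endothelial markers (2.55 FPKM, against 6.10 to 18.2 in the other pigs), mural cell markers (5.87 FPKM), leukocyte markers (2.90 FPKM) and red blood cell markers (15.6 FPKM). Mesothelial markers were near 0 in every pig, at sums of 0.0812 to 0.604 FPKM, the highest in pig-413. Lean pig-577, high in many members, was next lowest for endothelial markers (6.10 FPKM) and highest for red blood cell markers (99.6 FPKM). Of 10 tested genes of the response to tissue dissociation, 5 were lower in obese pigs at an unadjusted p of 0.05 (FOS, JUN, JUNB, IER2 and IER3) and 0 higher, against 10.3% and 10.5% of all genes. The summed level of that list was 613 to 1710 FPKM in lean and 383 to 1169 in obese pigs, highest in pig-413 and lowest in pig-572. The part of these cells and of this response in the matrix genes was not tested.

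Genes that make, cut and bind matrix were counted beside the members. Of 17 tested genes for collagen folding and processing, 3 were lower and 1 higher in obese pigs at an unadjusted p of 0.05, where 10.3% of all genes were lower and 10.5% higher, and none of these or the lists that follow passed the adjusted threshold in limma. PCOLCE, an enhancer of procollagen cleavage, was at 32.4 ± 8.70 FPKM in lean and 13.5 ± 14.1 in obese pigs (SD, n = 5 each, log2 difference -1.78). Its relative PCOLCE2 was at 2.64 ± 0.205 and 1.42 ± 0.641 without overlap of the groups (-0.63), the prolyl isomerase PPIB differed by -0.28 and the lysyl hydroxylase PLOD3 by 0.26.

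Of 14 genes for matrix degradation, 2 were lower and 5 higher, and these and the next counts stand against the same 10.3% and 10.5% of all genes. The inhibitor TIMP4 was at 1.70 ± 0.430 FPKM in lean and 3.42 ± 0.509 in obese pigs without overlap (log2 difference 0.72, limma adjusted p = 0.0652), while TIMP3 differed by -0.69, the aggrecan-cleaving ADAMTS4 by -2.21, the cathepsin CTSL by 1.10 and MMP15 by 0.50. Of 11 matrix receptors, 2 were lower, the syndecan SDC4 (-0.85) and the collagen receptor DDR2 (-0.61), and 1 was higher, the integrin chain ITGB8 (0.77). Of 21 other matrix genes, 4 were lower, MGP (-1.75), THBS2 (-1.30), EFEMP1 (-1.03) and the laminin chain LAMC1 (-0.48), and 1 was higher, the basement membrane linker NID2 (0.99). Of 13 TGF-beta signalling genes, the receptor ACVR1 was lower (-0.44). The medians of the lists were between -0.17 and -0.02.

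DNA methylation at the loci was read from the regions that the authors' comparisons hold. Boars and sows were used here. Pig-411 is labelled obese, but the authors' comparison lists its library as lean, and obese pig-584 is in neither set. The values carry no pig names, so no library could be moved. For RRBS pig-411 is labelled obese as well, and the group means do not show in which group it was counted. For mDNAcap, 12 of the 7401 regions overlapped 7 member loci. Regions had entered that table by a test on these same libraries that pools the animals of a group, so a difference was built into them. Over animals, 96.2% of all regions passed an adjusted p of 0.05 in limma, 27.1% as hyper-methylated and 69% as hypo-methylated in obese pigs, and the 11 of 12 that passed at the member loci, 6 hyper- and 5 hypo-methylated, are to be read against that. In all 12 the lean and obese libraries overlapped, and groups without overlap made up 0.149% of all regions.

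Hyper-methylated regions lay in both genes of the COL4A1 and COL4A2 pair on chromosome 11 and in an entry named COL16A1 on chromosome 13. The COL4A1 region chr11:84401001-84402300, 27339 bases from the lower end of the locus, had normalized counts of 13.2 to 32.6 (median 24.7) in lean and 24.4 to 55.2 (median 31.6) in obese libraries. Its log2 difference was 0.51 (SE 0.163, limma adjusted p = 0.00896, n = 11 each), and 10 of the 11 obese libraries were above the lean median. The COL4A1 region chr11:84406801-84407800 differed by 0.87 (SE 0.329, adjusted p = 0.0158 in limma) at lower counts, with means of 7.79 ± 4.23 and 13.1 ± 4.45 (SD). The COL4A2 region chr11:84674401-84675500, at the upper end of that locus, had means of 24.8 ± 5.71 and 35.1 ± 10.4 and differed by 0.46 (SE 0.175, adjusted p = 0.0159 in limma).

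The chromosome 13 entry held 4 regions, of which 3 passed. The clearest, chr13:217868601-217869900, had counts of 19.8 to 39.5 (median 28.1) in lean and 29.3 to 50.6 (median 37.5) in obese libraries, all 11 of them above the lean median (log2 difference 0.49, SE 0.136, limma adjusted p = 0.00849). The region nearest the lower end, chr13:217843101-217844200, did not pass (0.35, SE 0.203, adjusted p = 0.0933 in limma). In a reference list for the later assembly Sscrofa11.1, COL16A1 is on chromosome 6 and COL18A1 on chromosome 13, so the name of this entry is uncertain. Its RNA was at 0.0264 to 0.260 FPKM, too low to be tested.

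Hypo-methylated regions lay in COL21A1 (1), COL22A1 (2), COL23A1 (1) and FBN1 (1). Group means of these regions were at most 23.7. Some hyper-methylated regions were no higher in lean libraries, with means of 7.79 for a COL4A1 region and 20.4 for a region of the chromosome 13 entry. RNA of COL21A1, COL22A1 and COL23A1 was under 0.1 FPKM in every pig. The FBN1 region chr1:137279901-137281100, 176582 bases from the lower end of the locus, had counts of 6.59 to 33.1 (median 14.7) in lean and 0 to 19.5 (median 8.25) in obese libraries, with a log2 difference of -0.91 (SE 0.353, limma adjusted p = 0.0179, n = 11 each). COL23A1 differed by -0.91, COL22A1 by -0.82 and -0.85, and COL21A1 by -0.62. Outside the loci but within 5000 bases lay a hypo-methylated region below COL4A1 (-0.89) and a hyper-methylated region above COL6A2 (0.42, SE 0.165, adjusted p = 0.0182 in limma).

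**Figure D4:**
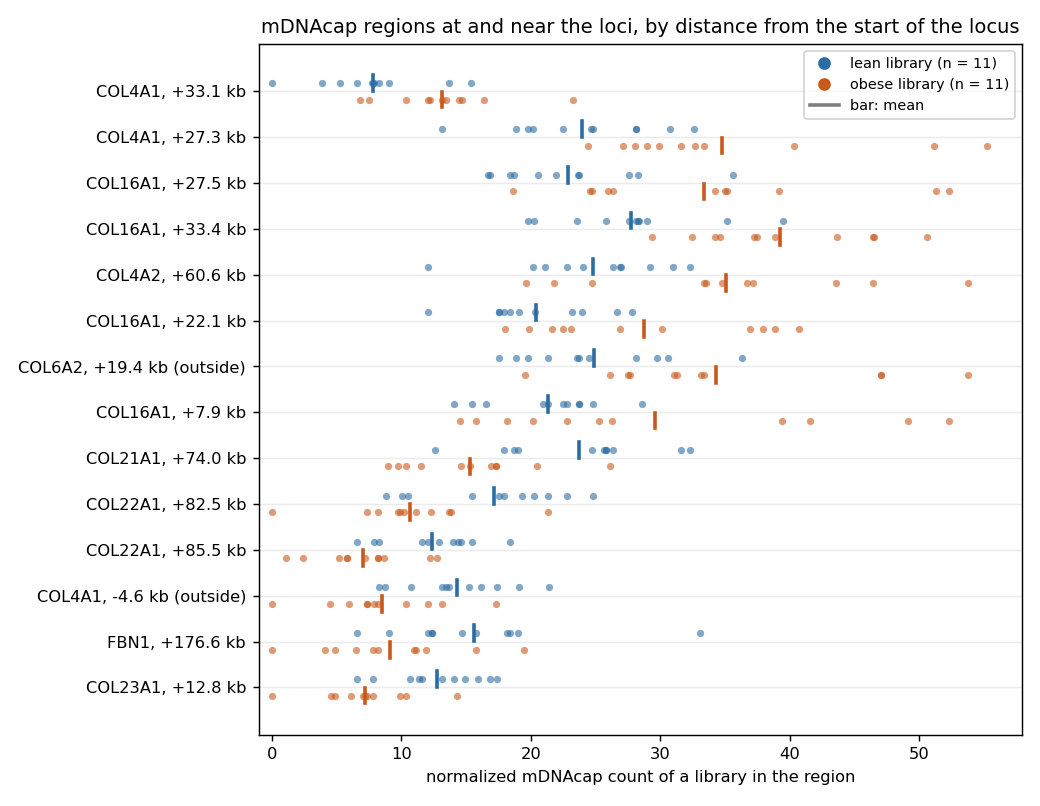
Normalized mDNAcap count of each lean and obese library (n = 11 each) in the 12 regions at member loci and 2 regions within 5000 bases, labelled by gene and distance from the lower end of the locus, with bars for the means. Obese libraries were shifted up in the COL4A2, COL6A2 and COL16A1 regions and in the COL4A1 regions inside the locus. They were shifted down in the others, including the COL4A1 region outside the locus, and every pair of groups overlapped.

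The hypo-methylated calls depended on how libraries were scaled. The mean count per bin over the genome, divided by the constant of the library, was 1.59 ± 0.417 in obese and 1.94 ± 0.351 in lean libraries (SD, n = 11 each). When counts were scaled to it, 0 of the 5 hypo-methylated regions passed (limma adjusted p from 0.0572 to 0.153), whereas all 7 with a positive difference passed (0.00750 to 0.0438), and median-of-ratios scaling gave the same counts. Of all regions, 28.3% then passed as hyper- and 14.9% as hypo-methylated with the first scaling, and 28.7% and 10.5% with the other. All 12 regions kept the sign of their difference.

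RRBS reads cytosines next to cuts of the enzyme MspI and gives the share of methylated reads at each CpG. The values used are the authors' group means, without a spread over pigs and without the coverage behind each region, so no difference was tested. The table that required values in 5 pigs of each group held 610 regions, 66.1% of them higher in obese pigs, with a median absolute difference of 12.6 points. It had 2 regions at member loci, in COL6A1 and COL5A1, both higher in obese pigs.

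The COL6A1 region lies at the lower end of that locus (scaffold GL896433.1, 8757 to 17584), listed from 8906 to 9326, and covers 16 CpGs. Its methylation level was 18.2% in obese and 5.41% in lean pigs, 12.8 points apart. The table that required only 3 pigs per group gave 18.1% and 5.58%. The sequence of its first CpG is shown because the region of this gene opens on it, and it was copied from a supplementary table on Sscrofa10.2 (bases 8892 to 8921), with the MspI cut site in capitals:
COL6A1: atggtgacaccaggCCGGtgacatgaagct
The inner CpG of the capitals starts at base 8907, so the listed start of 8906 counts from 0. Expression of COL6A1 was described above and overlapped between the groups.

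The COL5A1 region, chr1:307850306-307850665, covers 10 CpGs near the upper end of the locus, with 24.1% in obese and 12.9% in lean pigs. The 3-pig table held 2416 regions, 61.1% higher in obese pigs, and 7 at member loci, of which 3 were higher and 4 lower. COL6A3 had one of each kind, chr15:151499670-151499956 with 66.6% in obese and 82.4% in lean pigs, and chr15:151542290-151542387 with 18.3% and 6.54%. Besides the COL6A1 region, a COL5A1 region other than that of the 5-pig table, chr1:307841272-307841587, was higher (47.5% against 24.2%). Regions in COL5A3 (37.1% against 55.9%), COL13A1 (58.4% against 73.7%) and the chromosome 13 entry named COL16A1 (3.77% against 15.6%) were lower. A further COL6A1 region within 5000 bases below the locus had 40.4% in obese and 19.5% in lean pigs. A region below COL4A2 had 50.0% in obese and 68.7% in lean pigs. The chromosome 13 entry was the 1 member locus with regions of both assays, which did not overlap and had opposite signs.

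**Figure D5:**
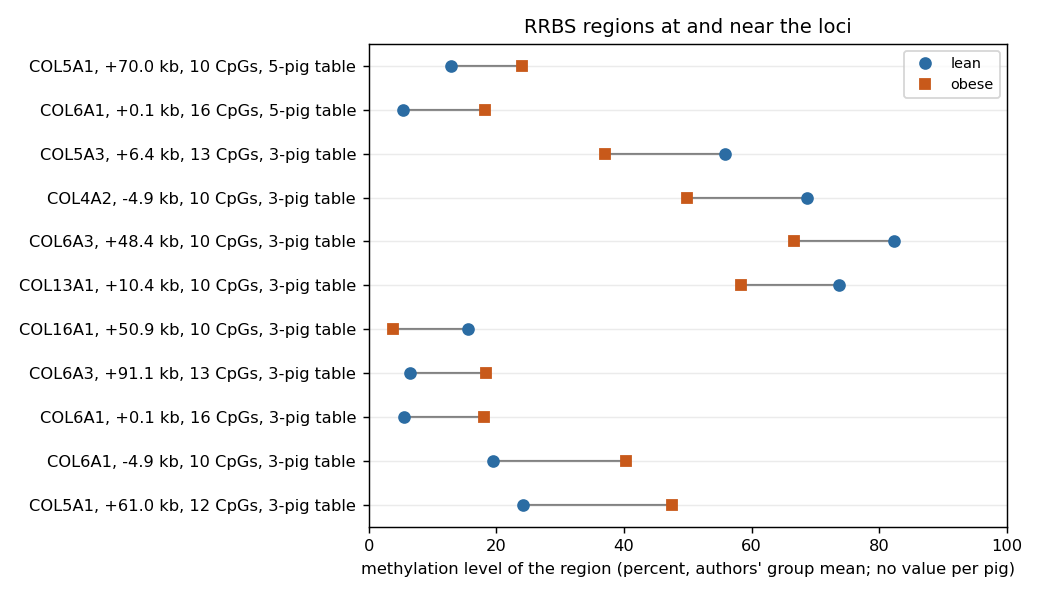
Methylation level in percent of each RRBS region at or within 5000 bases of a member locus, as the authors' mean of the lean (circle) and obese (square) pigs, labelled by gene, distance from the lower end of the locus, CpG number and table. Both regions of the 5-pig table, COL6A1 and COL5A1, were higher in obese pigs, and those of the 3-pig table lay in either direction.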

How the data were processed

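Mature adipocytes of retroperitoneal fat were profiled by RNAseq, mDNAcap and RRBS. The FPKM values were estimated by the authors for each library with cufflinks 2.2.0 from ribosome-depleted total RNA mapped with STAR 2.3.1 to Sscrofa10.2, Ensembl annotation. The kit marked strand, and cufflinks was run with its standard options. The mDNAcap regions came from diffReps 1.55.4 (windows 1000 bases long, moved by 100), with which the authors normalized the counts of each library by 1 constant, and the group signal deposited beside them averages these normalized counts. For RRBS, the authors deposited the methylated fraction of a region as a group mean over CpGs with at least 5 reads (bismark 0.10, bowtie2 2.1.0), and a score that is the number of CpGs. Fractions were turned into percent. The authors' fold changes, p-values and q-values, which fill 1 RNAseq table, 1 table of region clusters and some columns of the other tables, were not used.

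FPKM were divided by median-of-ratios size factors and the libraries of pig-572 averaged, the second of which carries another pig number in its description. Where the mean over pigs reached 1 FPKM, log2(value + 1) was compared with limma 3.58.1 (eBayes with trend, R 4.3.3), lean against obese, with Benjamini-Hochberg adjustment over 10200 genes and a threshold of 0.05, and single genes by the two-sided exact permutation test over 252 splits (smallest p 0.00794). mDNAcap counts were tested over 7401 regions on log2(count + 1). In simulated data with 10200 genes, 82% of genes changed by 1 on the log2 scale and 90% of those changed by 2 were recovered for the RNAseq comparison, with 16 false calls. The members varied more between pigs than these genes at large, so this share is not theirs. The simulated noise was also normal and independent between genes, whereas pig-413 and pig-433 shifted many members together. The share therefore need not hold for the real comparison. Loci and coordinates are those of the deposited tables. The tables give no reads per gene for RNAseq and no coverage per region for RRBS, and p-values rest on the spread between pigs.

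Members and lists were chosen with earlier results of these data known. Named were the 12 genes beside the collagens, collagens I, III, IV, V and VI, members with an unadjusted p under 0.05, members with a methylated region, and up to 5 genes per related list. Pigs were grouped by their labels. Alternatives were scaling, pseudocount, filter, the use of pig-572, each pig left out, the bounds of loci and the RRBS table. Scaling of mDNAcap by the mean count per bin was chosen after seeing the data.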

Additional observations from a re-analysis of the deposited data

Results flagged for a closer look

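In groups of 5 pigs, a value was marked when its gap to the nearest other pig was over 0.71 of the range of the group (Dixon). Of 50 groups, 11 were marked. A chance rate of about 1 in 20 holds for independent groups of normal values. These groups held the same pigs in genes that varied together, on FPKM without a log, so the count cannot be set against that rate. Obese pig-433 stood above the other obese pigs in 7 identifiers, COL4A1 (95.5 FPKM), COL4A2 (57.2 FPKM), COL6A1 (3.96 FPKM), COL6A2 (2.21 FPKM), COL1A1 on the scaffold (23.7 FPKM) and both entries of COL1A2 (30.4 and 9.26 FPKM). Lean pig-413 stood below the other lean pigs in both entries of COL1A2 (3.14 and 0.871 FPKM). Lean pig-577 stood above the other lean pigs in DPT (111 FPKM) and FN1 (11.6 FPKM).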

How the results depend on the processing

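No paired analysis was possible because the numbers in the labels are those of the pigs, which lean and obese groups do not share. With each pig left out, the members lower in obese pigs at an unadjusted p of 0.05 numbered 3 (without lean pig-525 or pig-577, or obese pig-529) to 11 (without lean pig-413), and 8 without obese pig-433. With the libraries of pig-572 as separate samples, which counts 1 pig as 2, 178 of the 10200 genes and 1 member passed the adjusted threshold, FN1, with a log2 difference of -1.44 and an adjusted p of 0.0436 in limma, against 0.0627 to 0.238 over the other alternatives. With no filter on low values, 1 member was higher at an unadjusted p, COL11A2, at 0.00784 FPKM in lean and 0.0280 in obese pigs. Signs turned for 7 identifiers. COL4A2 was -0.012 without scaling, -1.45e-05 with separate libraries of pig-572 and -0.025 with its first library alone. With a pig left out, COL4A2 ran from -0.13 to 0.16, COL3A1 from -0.40 to 0.018, COL5A1 from -0.023 to 0.39, COL5A3 from -0.087 to 0.23, SPARC from -0.15 to 0.20, LUM from -0.52 to 0.16 and PI16 from -0.39 to 0.14. Of mDNAcap regions at member loci, 0 hypo-methylated regions passed under either other scaling, and a mean normalized count of at least 20 left 6 regions and 0 hypo-methylated ones, since it removes low counts. For RRBS, the 3-pig table had 4 regions lower in obese pigs, and 0 of the 2 regions of the 5-pig table reached a difference of 20 points. Otherwise the cause of these changes was not tested. Over all identifiers and alternatives, 382 values kept both sign and side of the threshold, and 72 counts and medians stayed within 1.5 times (counts) or 1 SD between pigs (medians), whereas 13 counts did not. That SD was 0.68, wider than the size of the median itself (-0.45), so the rule was no test of whether the medians held. The median of the members ran from -0.70 to -0.26 with a pig left out. It was -0.011 without a filter, with members under 1 FPKM added, where log2(value + 1) compresses differences. RRBS group means carry no spread.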
